A study of Mus musculus with 2 samples.

Results

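The genes described here were 6 receptors and ectoenzymes used to read T cell inhibition, Pdcd1, Lag3, Havcr2, Ctla4, Tigit and Entpd1, together with the nuclear factor Tox. They were taken by symbol, and these 7 members were found once each among the 32285 features of the single-cell count matrices. The data were scRNA-seq of J558 plasmacytoma allografts, a mouse plasma cell tumor line grown subcutaneously in the flank of female BALB/c mice 4 weeks of age, which are syngeneic to it and keep their own immune cells. A control mouse received vehicle, 0.5% methylcellulose, by mouth, and the treated mouse received oral TAK-931, an inhibitor of the replication kinase CDC7, in daily doses of 60 mg/kg over 6 days. There was 1 library in each group, and no test between treatments was possible; intervals below are exact 95% intervals that cover counting error only.

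Checkpoint receptors are switched on when T cells meet antigen, and most of them carry inhibitory signals that limit the response. In tumors, CD8 T cells under lasting antigen stimulation carry several of these receptors at once, lose self-renewing features such as the factor TCF1 (encoded by Tcf7), and express TOX, a DNA-binding protein known to maintain this state. Regulatory T cells, which depend on Foxp3, use CTLA-4 and TIGIT constitutively, and some of the receptors, TIM-3 (Havcr2) and the ATP-degrading enzyme CD39 (Entpd1) in particular, are also known from myeloid cells.

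Barcodes with over 2000 detected genes and under 15% mitochondrial counts were kept, which left 3441 vehicle cells and 3488 TAK-931 cells with medians of 40504 and 15097 UMIs (unique molecular identifiers, each counting 1 captured transcript). Cells were placed in classes by marker genes, none of which was a member, and classes are called "-like" for that reason. The TAK-931 library held 514 CD8 T-like, 19 CD4 T-like and 106 regulatory T-like cells and 1904 monocyte/macrophage-like cells, of which 1047 were high and 857 low in the complement genes C1qa, C1qb and C1qc. The vehicle library, in which 2460 cells were J558-like, held 7 CD8 T-like cells, no CD4 T-like cell, 4 regulatory T-like cells and 210 monocyte/macrophage-like cells. The members in T cells could therefore be described mainly after TAK-931. Barcodes shared by the libraries numbered 8, of which 1 was a T cell of the TAK-931 library.

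The class names were checked on genes that the classes did not use. Regulatory T-like cells of the TAK-931 library had Ikzf2 at 1444 CPM (the gene's UMIs scaled by all UMIs of the summed class) against 198 in CD8 T-like cells. Nkg7, a gene of cytotoxic lymphocytes, was at 1148 CPM in CD8 T-like, 526 in regulatory T-like and 1278 in NK-like cells, so it set CD8 T-like cells apart from regulatory T-like cells and not from NK-like cells. Ccl5 (4407 against 2181 CPM) and Gzmk (115 against 4.65) were also higher in CD8 T-like than in regulatory T-like cells. Lck was level (273 and 266 CPM), and Cd2 was lower (410 against 830 CPM). The CD4 T-like class was not clean: Gzma, a granzyme of cytotoxic cells, reached 4840 CPM and Cd40lg, a helper T cell gene, 7.79 CPM, and 10 of the 19 cells rested on a single Cd4 UMI. A further 45 cells with CD4 T markers had over 500 but no more than 2000 genes and fell below the gene minimum. Of the 514 CD8 T-like cells, 15 had only 2 or 3 UMIs of Cd8a and Cd8b1, and of the 106 regulatory T-like cells 13 had a single Foxp3 UMI. Doublets were not removed, and 23 of the CD8 T-like cells also met the marker minimum of J558, fibroblast or endothelial cells, with a median of 80567 UMIs. They carried nearly all of the J558 marker RNA in the class, whose summed J558 markers were at 27.4 CPM without them, and values without them are given for the summed levels and beside the ratios they changed.

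The members lie on 6 chromosomes of the mouse GRCm38 (mm10) build, all as protein-coding genes. Pdcd1 (ENSMUSG00000026285), which encodes PD-1, spans chr1:94038305-94052553 on the minus strand, and Ctla4 (ENSMUSG00000026011), which encodes the CD28 competitor CTLA-4, spans chr1:60887000-60915832 on the plus strand. Lag3 (ENSMUSG00000030124), a receptor for MHC class II, spans chr6:124904361-124911705 on the minus strand. Havcr2 (ENSMUSG00000020399), which encodes TIM-3, spans chr11:46454935-46481255 on the plus strand. Tigit (ENSMUSG00000071552), a receptor for the poliovirus receptor family, spans chr16:43648867-43664146 on the minus strand. Tox (ENSMUSG00000041272) spans chr4:6686353-6991557 on the minus strand, and Entpd1 (ENSMUSG00000048120) chr19:40612366-40741602 on the plus strand.

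The 250 bases before the RefSeq start of 4 members are given here, 5′ to 3′ on the gene's strand, because they lie just upstream of a RefSeq start of a pair found more often in CD8 T-like cells with the cytotoxic gene Gzmb (Pdcd1 and Havcr2) and of the pair that was highest in regulatory T-like cells (Ctla4 and Tigit). Sequences are from RefSeq on GRCm38.p6. The RefSeq start of Ctla4 lies inside the longer span given above, so its window is within the annotated gene. Capitals mark the core of the calcium-responsive factor NFAT (GGAAA, or TTTCC on the other strand) and the AP-1 motif TGANTCA, both searched on both strands.

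Pdcd1 chr1:94052554-94052803, minus strand: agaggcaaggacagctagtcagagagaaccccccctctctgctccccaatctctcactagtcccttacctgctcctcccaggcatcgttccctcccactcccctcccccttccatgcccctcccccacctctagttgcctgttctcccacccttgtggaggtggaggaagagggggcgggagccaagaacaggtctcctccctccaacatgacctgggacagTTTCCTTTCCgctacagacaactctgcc

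Havcr2 chr11:46454681-46454930, plus strand: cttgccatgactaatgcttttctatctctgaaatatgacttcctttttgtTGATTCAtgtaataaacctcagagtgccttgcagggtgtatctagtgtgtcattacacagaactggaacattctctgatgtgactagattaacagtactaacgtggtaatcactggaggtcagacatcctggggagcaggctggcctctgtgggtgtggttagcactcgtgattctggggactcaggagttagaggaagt

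Ctla4 chr1:60908775-60909024, plus strand: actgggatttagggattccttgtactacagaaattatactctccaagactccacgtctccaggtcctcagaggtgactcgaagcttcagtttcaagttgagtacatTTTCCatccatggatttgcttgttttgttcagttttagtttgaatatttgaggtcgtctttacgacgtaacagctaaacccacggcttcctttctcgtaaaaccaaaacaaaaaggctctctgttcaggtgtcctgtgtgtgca

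Tigit chr16:43664185-43664434, minus strand: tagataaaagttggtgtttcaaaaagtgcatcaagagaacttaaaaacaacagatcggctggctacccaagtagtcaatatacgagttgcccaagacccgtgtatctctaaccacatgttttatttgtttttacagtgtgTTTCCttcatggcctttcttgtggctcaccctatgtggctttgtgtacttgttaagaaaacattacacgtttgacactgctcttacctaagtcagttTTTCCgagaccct

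The Pdcd1 window held 2 NFAT cores next to each other close to the start, the Tigit window 2, the Ctla4 window 1 and the Havcr2 window none, while Havcr2 alone held an AP-1 motif. The window before the upstream Entpd1 start held neither, and its second start, at chr19:40659520-40659769, held 2 NFAT cores. These short motifs are common: of 32851 mouse promoters of 300 bases, 55.6% held at least 1 NFAT core and 6.75% an AP-1 motif. The matches are given as a description of the letters only.

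In CD8 T-like cells of the TAK-931 library every member was detected, in shares that ranged widely. Because the chance of detection rises with depth, each cell was also drawn down at random to 4000 UMIs, and all classified cells had at least that many. At 4000 UMIs Pdcd1 was found in 59.5% of the 514 cells (55.1 to 63.8), Tox in 48.6% (44.2 to 53.1) and Entpd1 in 39.7% (35.4 to 44.1). Ctla4 followed with 34.8% (30.7 to 39.1), Havcr2 with 31.3% (27.3 to 35.5), Lag3 with 26.8% (23.1 to 30.9) and Tigit with 6.81% (4.79 to 9.34). Neighbours in this order whose intervals overlapped were Entpd1 with Ctla4, Ctla4 with Havcr2 and Havcr2 with Lag3. At full depth, a median of 15133.5 UMIs per cell, the shares were 89.7% for Pdcd1, 85.2% for Tox, 71.6% for Entpd1, 70.8% for Ctla4, 64.4% for Lag3, 55.1% for Havcr2 and 21.8% for Tigit. Lag3 and Havcr2 changed places with depth: Havcr2 was held by fewer cells at a median of 4 UMIs per positive cell, and Lag3 by more cells at 2.

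The highest count in a single CD8 T-like cell was 42 UMIs for Pdcd1 and 30 for Havcr2, against 5 for Tigit. The summed level, which counts transcript ends and has no term for gene length, was 269.6 CPM for Pdcd1 (260 to 279), 163 for Tox (155 to 170), 139 for Entpd1 (132 to 146), 138 for Havcr2 (131 to 145), 100.1 for Ctla4 (94.3 to 106), 84.5 for Lag3 (79.2 to 90.1) and 12.9 for Tigit (10.9 to 15.2). Without the 23 cells of another class the levels were 306 CPM for Pdcd1, 187 for Tox, 157 for Havcr2 (149 to 166), 141 for Entpd1 (134 to 149), 111 for Ctla4, 96.0 for Lag3 and 14.4 for Tigit. Havcr2 then stood above Entpd1, whereas their intervals overlapped with these cells included. As a measure of free RNA, fibroblast-like cells, which should lack these receptors and were deeper (median 21748 UMIs), had a UMI of Pdcd1 in 1.89% of 53 cells and none of Ctla4, Tigit or Tox, for which 0 of 53 cells allows a share of cells with a UMI of up to 5.66% by the 3-count limit and 6.72% by the exact interval. Lag3 reached 17.0% of the fibroblast-like cells at full depth, never above 1 UMI per cell, and none at 4000 UMIs. Entpd1 was found in 7.55% and Havcr2 in 3.77% of them at 4000 UMIs.

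**Figure D1:**
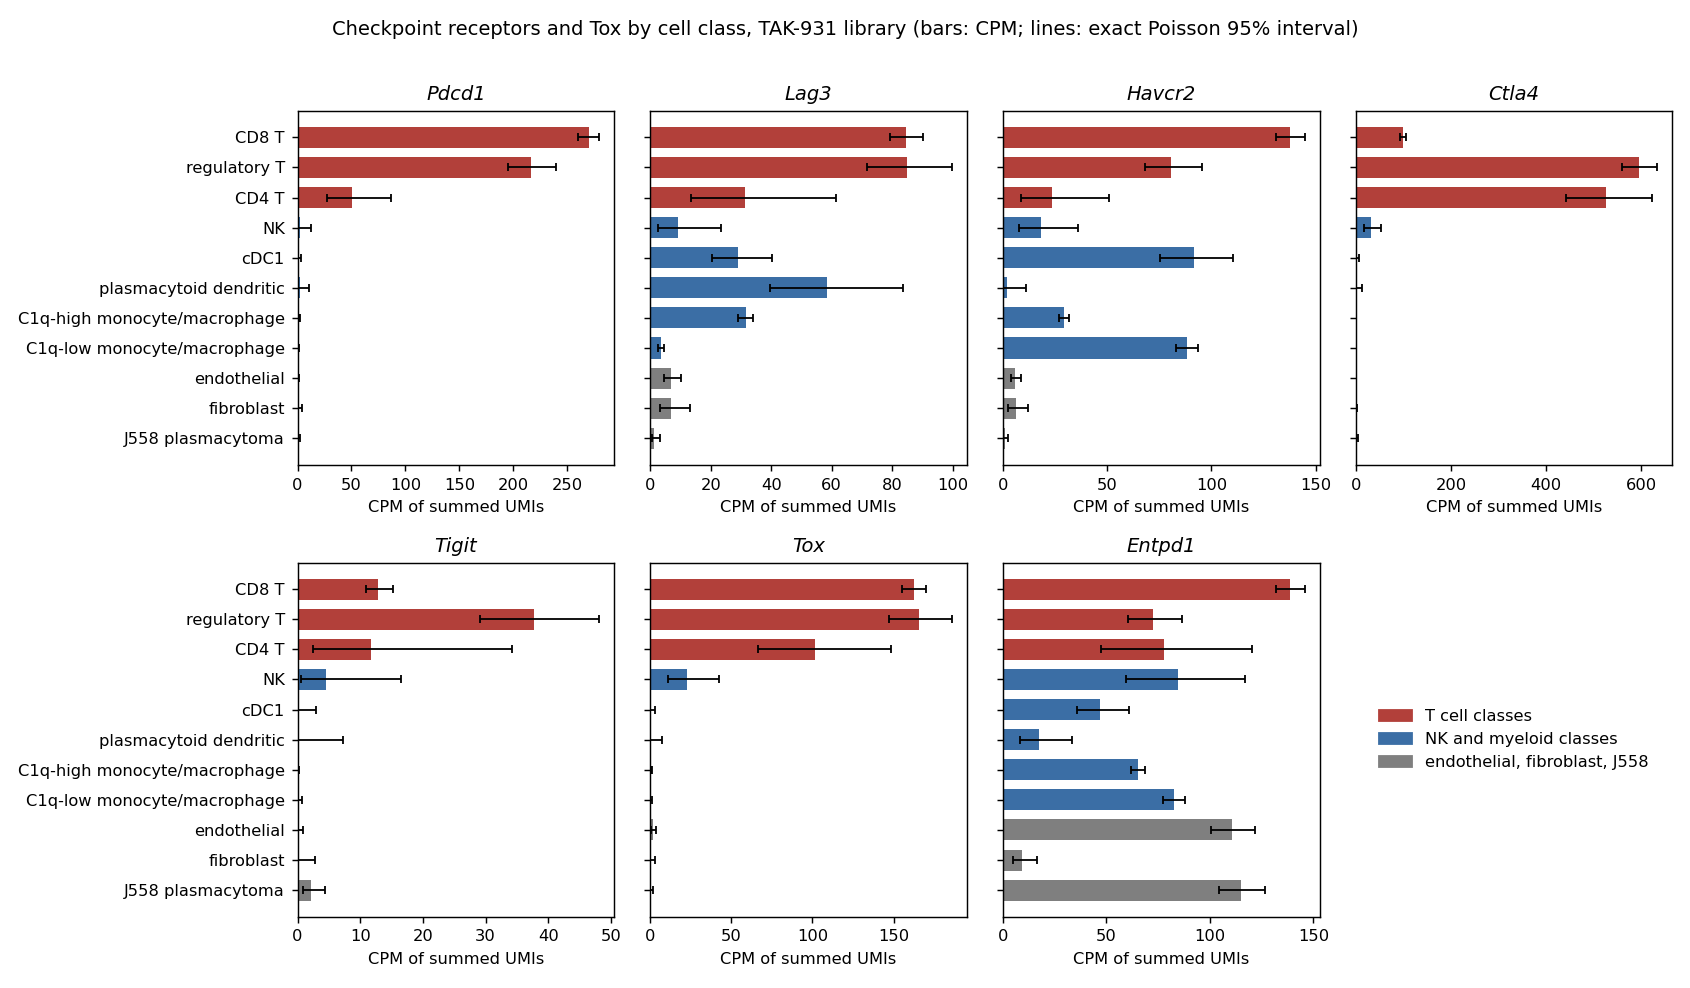
Summed level of each member (x axis, CPM, linear, a different range in each panel) in 11 cell classes of the TAK-931 library (y axis). Bars are the CPM of the class and lines exact Poisson 95% intervals. Ctla4 and Tigit were highest in regulatory T-like cells, Pdcd1 and Havcr2 in CD8 T-like cells, and Entpd1 was found in all classes shown, with 9.29 CPM in fibroblast-like cells as the lowest.

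Regulatory T-like cells differed from CD8 T-like cells mainly in Ctla4 and Tigit. Ctla4, the receptor through which these cells take CD80 and CD86 away from dendritic cells, was at 596 CPM (560 to 634) in regulatory T-like cells and 100.1 CPM in CD8 T-like cells, a 5.96-fold higher level (log2 ratio 2.57, 2.45 to 2.70). It was the most widely detected member of the class, in 95.3% of the 106 cells and still in 85.8% at 4000 UMIs. Tigit was at 37.8 CPM (29.1 to 48.1) against 12.9 CPM, 2.93-fold higher (log2 ratio 1.55, 1.11 to 1.98). These were the 2 of 7 members that were at least 2-fold higher in regulatory T-like cells, where 8.36% of the 12278 genes compared reached that size.

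Pdcd1, Havcr2 and Entpd1 went the other way. Pdcd1 had a log2 ratio of -0.32 (-0.48 to -0.16) from 216 CPM in regulatory T-like cells, Havcr2 one of -0.77 (-1.03 to -0.52) from 80.8 CPM and Entpd1 one of -0.93 (-1.21 to -0.67) from 72.6 CPM. All 3 intervals lay below 0, but none of the 7 members was at least 2-fold lower, a size that 15.5% of all genes reached. When T cells above 30000 UMIs were left out, Havcr2 (-1.02) and Entpd1 (-1.15) passed 2-fold lower. Lag3 stood at 84.8 CPM in regulatory T-like and 84.5 CPM in CD8 T-like cells (log2 ratio 0.01, -0.26 to 0.26), and Tox at 166 and 163 CPM (0.03, -0.16 to 0.21). Without the cells of another class their ratios were -0.18 and -0.15, with intervals that still took in 0, and that of Pdcd1 was -0.52 (-0.68 to -0.36).

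Around the members, gene lists of T cell states set these classes apart. Of the 12 effector and cytotoxic genes, 9 were at least 2-fold lower in regulatory T-like cells and none higher, led by Fasl, the death ligand (log2 ratio -5.65), Gzmk (-4.63) and Gzma (-4.14); the list's median was -1.86 where the median of all genes was -0.09. Of 12 other inhibitory receptors compared, 5 were higher, with Klrg1 at 3.19 and Cd5, a damper of T cell receptor signalling, at 2.66, and 4 were lower, with the NK-type receptor Klrc1 at -5.82 and Cd96, which shares a ligand with Tigit, at -2.98. Of 8 costimulatory receptors, 5 were higher, with Tnfrsf4 (OX40) at 3.52 and Icos at 1.75, while Cd226, the activating counterpart that competes with Tigit for the same ligands, was at -3.55. Among 17 regulators linked to exhaustion, 3 were higher (Ikzf2 at 2.86, Cd101 at 1.39, Batf at 1.11) and 5 lower, among them Eomes at -3.28. The 9 progenitor and memory genes compared split into 3 higher, with Il7r at 2.55 and Slamf6 at 1.22, and 2 lower, Id3 at -2.36 and Tcf7 at -1.82. None of 10 genes of dividing cells passed 2-fold. Of 11 checkpoint ligand genes, 4 were higher, with Pdcd1lg2 at 1.25 and H2-Ab1 at 1.20, and none was lower. The 3 B cell genes with enough UMIs were all lower, and their part in these ratios was not tested. All 11 regulatory T cell genes were higher, of which Foxp3 had defined the class.

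The 19 CD4 T-like cells gave only broad limits. Pdcd1 was at 50.7 CPM (27.0 to 86.6) from 7 cells, and regulatory T-like cells exceeded this by a log2 ratio of 2.09 (1.30 to 3.02). Ctla4 reached 526 CPM, but 1 cell held 51.9% of its 135 UMIs, and only 10 of the 19 cells had any. Tox was at 101 CPM (66.2 to 148) and found in 11 cells, Entpd1 at 77.9 CPM in 8 cells, Lag3 at 31.2 CPM in 5 cells, Havcr2 at 23.4 CPM in 2 cells and Tigit at 11.7 CPM in 3 cells. Of these cells, 3 also met the fibroblast marker minimum, and without them the levels in the other 16 were 69.7 CPM for Pdcd1 (37.1 to 119), 703 for Ctla4, 139 for Tox and 102 for Entpd1. The 3 cells that met the minimum for NK cells held no UMI of Pdcd1 or Tox and 4 of Ctla4.

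The other lymphoid class, 35 NK-like cells, was low in the T cell members. Tox was at 22.9 CPM in 7 cells and Ctla4 at 32.1 CPM, of which 1 cell held 85.7%. Entpd1 was at 84.8 CPM (59.7 to 117), a level whose interval overlapped those of CD4 T-like and regulatory T-like cells, with 37.8% of the UMIs in 1 cell. Of the whole TAK-931 library, CD8 T-like cells held 76.2% of all Pdcd1 UMIs in kept cells and 69.8% of those of Tox.

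Several members were commonly found in the same cell. At 4000 UMIs, 48.2% of CD8 T-like cells had at least 3 of the 7 members (43.9 to 52.7), 24.7% at least 4 and 7.78% at least 5, with a median of 2, while 92.0% had at least 1. Regulatory T-like cells had a median of 3, and 52.8% had at least 3 (42.9 to 62.6), an interval that overlapped that of CD8 T-like cells. CD4 T-like cells had a median of 1, with 4 of 19 at 3 or more (21.1%, 6.05 to 45.6). At full depth, 88.9% of CD8 T-like and 84.0% of regulatory T-like cells had at least 3 members, with medians of 5 and 4. For comparison, 0.19% of C1q-high cells had at least 3 at 4000 UMIs.

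**Figure D2:**
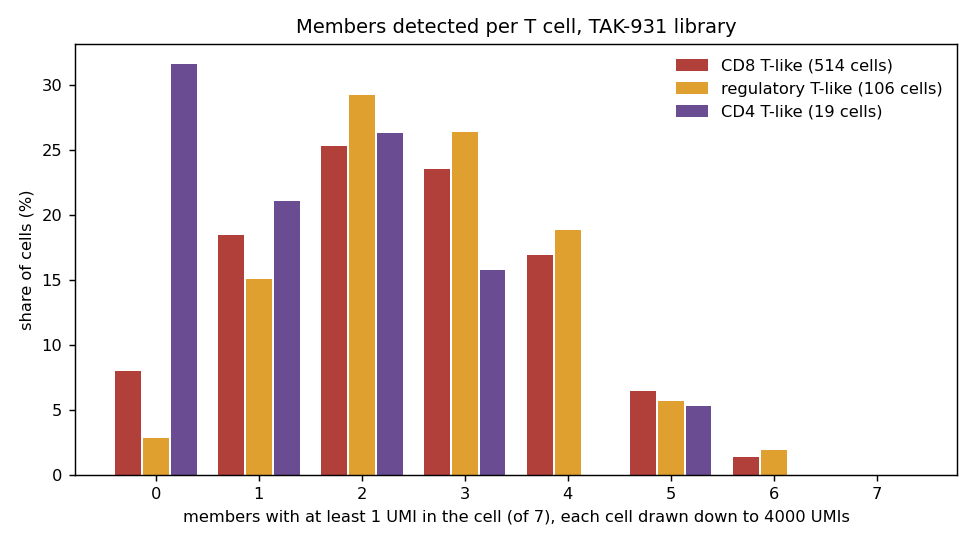
Share of cells (y axis, %) by the number of members with at least 1 UMI (x axis, 0 to 7) in 3 T cell classes of the TAK-931 library, after each cell was drawn down to 4000 UMIs. Bars are CD8 T-like (514 cells), regulatory T-like (106) and CD4 T-like (19) cells. Medians were 2, 3 and 1 members.

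Pairs of members were compared with the number of cells expected from their separate shares, computed within 3 depth classes of cells and then summed. In CD8 T-like cells 16 of the 21 pairs were found together more often than this expectation, with a median ratio of 1.08. The highest ratios joined Lag3, Havcr2 and Entpd1: Lag3 and Havcr2 met in 60 cells where 41.9 were expected (1.43), Havcr2 and Entpd1 in 87 where 63.7 were expected (1.37), and Lag3 and Entpd1 in 71 where 54.9 were expected (1.29). Pdcd1 met Havcr2 in 114 cells (1.20) and Entpd1 in 141 cells (1.16). Pdcd1 and Tox, the most widely detected members, met in 160 cells where 150 were expected (1.07). Ctla4 met Entpd1 in 63 cells where 71.1 were expected (0.89), and the lowest ratio was that of Havcr2 and Tigit, with 8 cells where 10.4 were expected (0.77). In the 106 regulatory T-like cells 14 of 21 pairs were above 1, with Lag3 and Entpd1 at 1.66 on 9 cells, so single pairs there rested on few cells. These ratios describe cells of 1 tumor and carry no test. The share of other gene pairs above their expectation was not computed, so 16 of 21 has no background beside it. The 23 CD8 T-like cells of another class were kept here. They were lower in Pdcd1 (70.7 against 306 CPM) and Havcr2 (28.3 against 157 CPM), while Entpd1 stood at 125 against 141 CPM. Ratios of the single pairs without these cells were not computed.

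**Figure D3:**
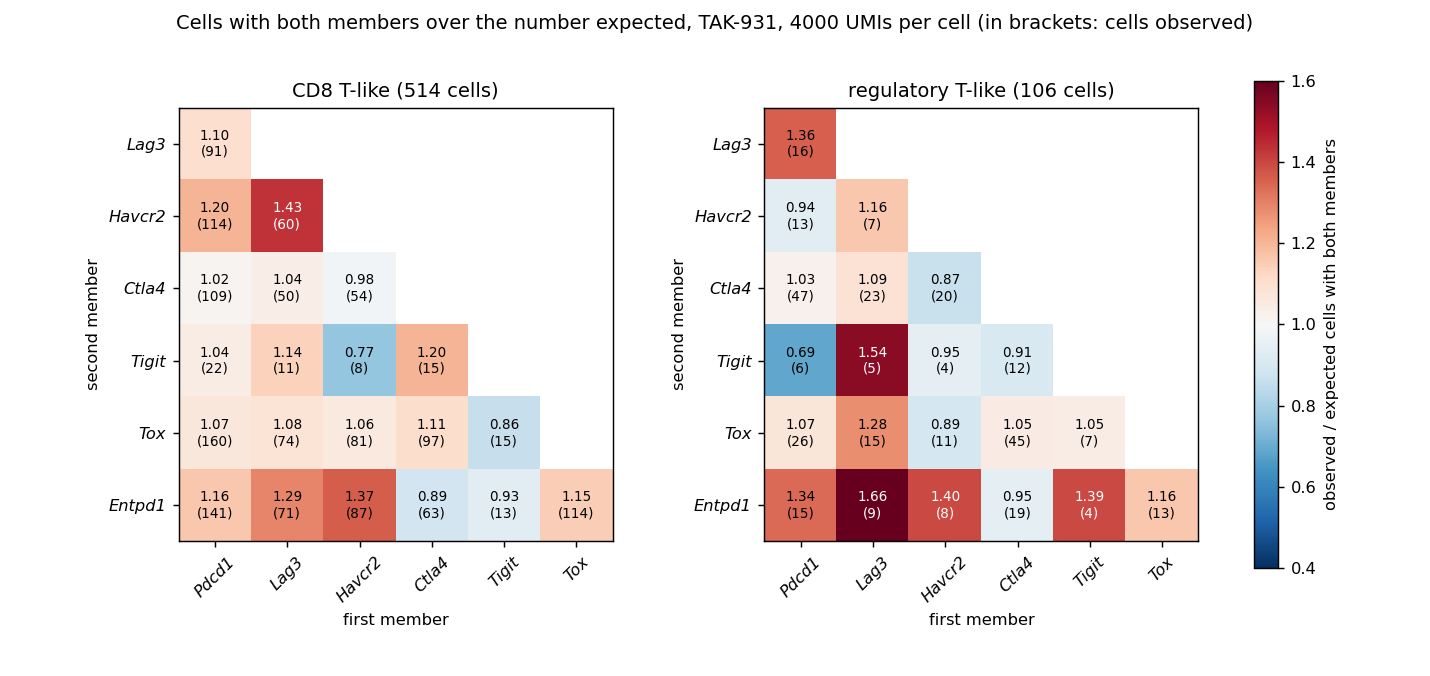
Cells with both members over the number expected from the shares of each (colour, white at 1, red above and blue below) for the 21 pairs of members in CD8 T-like and regulatory T-like cells of the TAK-931 library. Each square gives the ratio and, in brackets, the cells observed. In CD8 T-like cells the pairs among Lag3, Havcr2 and Entpd1 were at 1.29 to 1.43.

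When CD8 T-like cells were split by Gzmb, Tcf7 or Cxcr6, genes outside the list, the same 4 members separated each time. Splits by Slamf6 and by genes of dividing cells did not separate them as a group. How many of all genes these splits would separate was not computed, so the count is not read as particular to the members. Gzmb encodes granzyme B, a killing protease. In the 296 cells with Gzmb at 4000 UMIs, Havcr2 was found in 43.9% (38.2 to 49.8), against 14.2% (9.87 to 19.6) of the 218 without. Entpd1 was at 50.3% and 25.2%, Pdcd1 at 66.9% and 49.5% and Lag3 at 32.8% and 18.8%, with intervals that did not overlap for any of these 4. For Ctla4 (32.4% with, 38.1% without), Tigit (4.73% and 9.63%) and Tox (51.0% and 45.4%) the intervals overlapped, which does not show that they were equal.

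The split by Tcf7, which marks progenitor-like T cells, gave the same 4 members in the opposite direction. Only 48 cells had Tcf7 at this depth. Havcr2 was in 4.17% of them against 34.1% of the 466 without, Entpd1 in 6.25% against 43.1%, Lag3 in 6.25% against 29.0% and Pdcd1 in 35.4% against 62.0%, again without overlap. Tox did not follow: it was in 45.8% (31.4 to 60.8) of cells with Tcf7 and 48.9% (44.3 to 53.6) of cells without, and Ctla4 was in 37.5% and 34.5%. A split by Cxcr6, a chemokine receptor of tissue-resident T cells, separated Pdcd1, Lag3, Havcr2 and Entpd1 once more, with Entpd1 at 52.6% of 291 cells with and 22.9% of 223 without, while Tox was at 49.5% and 47.5%.

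Division made less difference. Cells with Mki67 or Top2a, genes of dividing cells, numbered 262, and the intervals overlapped those of the 252 others for all 7 members, with Pdcd1 at 58.4% and 60.7% and Havcr2 at 33.6% and 29.0%. By Slamf6, which also marks progenitor-like cells, Entpd1 alone had intervals that did not overlap (20.9% of 67 cells with, 42.5% of 447 without). In regulatory T-like cells, the split by Gzmb gave overlapping intervals for all 7 members. All these splits compare cells of the same library.

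**Figure D4:**
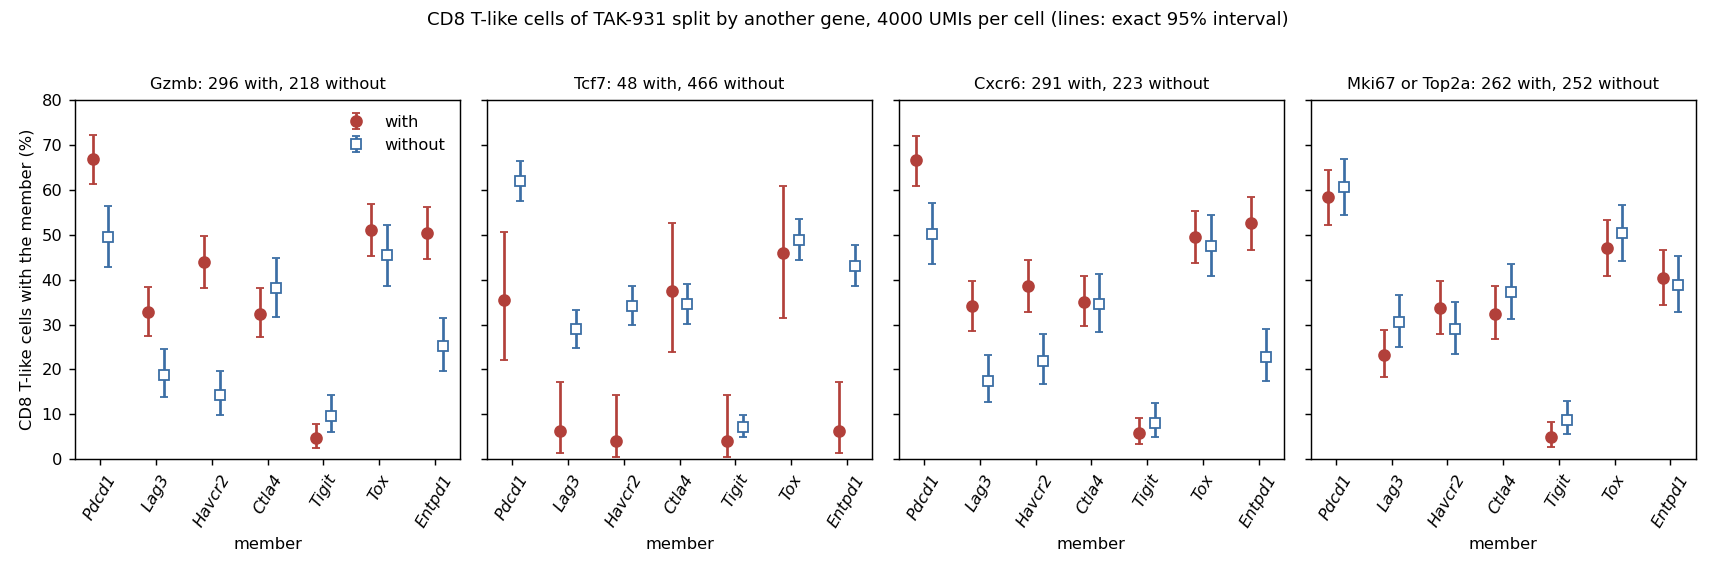
Share of CD8 T-like cells of the TAK-931 library with each member (y axis, %) in cells with (filled circles) and without (open squares) Gzmb, Tcf7, Cxcr6, and Mki67 or Top2a, at 4000 UMIs per cell. Lines are exact 95% intervals. Pdcd1, Lag3, Havcr2 and Entpd1 separated in the first 3 panels, whereas Ctla4, Tigit and Tox overlapped in all 4.

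The CD8 T-like cells with Pdcd1 at 4000 UMIs (306 cells) were compared with those without (208 cells). Havcr2 was higher in cells with Pdcd1 by a log2 ratio of 0.85 (0.46 to 1.25) and Entpd1 by 0.80 (0.44 to 1.18). Lag3 (0.47, 0.02 to 0.92) and Tox (0.36, 0.06 to 0.66) had intervals just above 0 that took in 0 when the 23 cells of another class were left out (-0.09 to 0.82 and -0.05 to 0.56), and Tigit (0.28) and Ctla4 (0.09) did not exclude 0. Of the 8736 genes compared, 4.33% were 2-fold higher and 5.30% lower, or 0.523% and 1.05% of the 4591 with at least 50 UMIs. None of these 6 members was 2-fold higher or lower. This rested on the drawing down to 4000 UMIs: at full depth, where 461 cells had Pdcd1 and 53 had none, Havcr2 (2.26), Lag3 (1.74), Entpd1 (1.28) and Tigit (1.08, -0.18 to 2.73) passed 2-fold, while Tox (0.45) and Ctla4 (0.35) did not. Of 9 progenitor and memory genes, 5 were at least 2-fold lower with Pdcd1 and none higher, among them the survival factor Bcl2 (-2.88) and Tcf7 (-2.12). Of 12 effector and cytotoxic genes, 3 were lower, Gzma (-2.12) and the chemokines Ccl3 (-1.75) and Ccl4 (-1.27), while Gzmb was at 0.68 (0.50 to 0.86). Of 16 exhaustion regulators, Nr4a1 (-1.24) and Tox2 (-1.02, with an interval of -2.53 to 0.43) were lower and none was higher. Of the other lists, Klrg1 (-1.11) among 10 inhibitory receptors and Pvr (-1.43, with an interval of -3.15 to 0.13) among 10 ligand genes were lower, and no costimulatory receptor or gene of dividing cells passed 2-fold.

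The genes whose counts ran most closely with each member across the 514 CD8 T-like cells were taken by Pearson's r of log-scaled UMIs among 7930 genes, as a description over cells that share a library. For Havcr2 these were Prf1, which encodes the pore-forming perforin (r = 0.54), Gzmb (0.53) and Myo10 (0.52). For Entpd1 they were Gzmb (0.47), Cxcr6 (0.46) and the integrin gene Itgb2 (0.45), and its closest member was Havcr2 (0.44). For Lag3 the first was Ptms (0.43), which is its nearest coding neighbour on the same strand (chr6:124913681-124920103), followed by Cxcr6 (0.43). The first genes of Pdcd1 (Nkg7), Tox (Cblb), Ctla4 (Ndfip1) and Tigit (Jak1) reached 0.37, 0.31, 0.25 and 0.24, too weak in counts this sparse to read, as were those across the 1904 monocyte/macrophage-like cells for Havcr2 (Cytip, 0.36) and Entpd1 (Tspan13, 0.21). The first 3 genes of Lag3, Havcr2 and Entpd1 were the same without the cells of another class.

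Outside T cells, Lag3 was found in C1q-high macrophage-like cells and in dendritic-like cells. In the TAK-931 library it was at 31.6 CPM (29.2 to 34.1) in the 1047 C1q-high cells and 3.46 CPM (2.49 to 4.70) in the 857 C1q-low cells, a 9.11-fold difference (log2 ratio 3.19, 2.73 to 3.68). Plasmacytoid dendritic-like cells, a type known to carry LAG-3, had 58.6 CPM (39.5 to 83.6) in 47 cells, and cDC1-like cells, the cross-presenting dendritic cells, 29.2 CPM, of which 1 cell held 44.4%. The level in fibroblast-like cells was 6.97 CPM (3.19 to 13.2), below that of C1q-high cells, with an interval that overlapped that of C1q-low cells. Of the 231 C1q-high cells with Lag3, 195 (84.4%) had no UMI of Cd3d, Cd3e or Cd3g. The class rule allowed at most 1 such UMI per cell, and all 1047 cells held 151. The lack of CD3 was thus largely set by the class and does not tell where the Lag3 RNA came from. The class had 20.3 Lag3 UMIs per Pdcd1 UMI where CD8 T-like cells had 0.313. In the vehicle library Lag3 was found in 31 of 129 C1q-high cells (19.0 CPM, 13.7 to 25.8), a class without any CD3 UMI, and in 1 of 81 C1q-low cells.

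Between libraries the Lag3 level in C1q-high cells had a log2 ratio of 0.73 (0.27 to 1.22) from vehicle to TAK-931, but the share of cells with Lag3 at 4000 UMIs was 8.53% in vehicle (4.33 to 14.7) and 6.02% after TAK-931 (4.65 to 7.63), so that no order is read from it.

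Havcr2 ran opposite to Lag3 over C1q-high, C1q-low and plasmacytoid dendritic-like cells, whereas cDC1-like cells held both. After TAK-931 it was at 88.1 CPM (82.9 to 93.7) in C1q-low cells, 91.6 CPM (75.5 to 110.2) in cDC1-like cells and 29.4 CPM (27.0 to 31.8) in C1q-high cells, against 1.95 CPM, 1 UMI, in plasmacytoid dendritic-like cells. In vehicle the levels were 191 CPM (160 to 227) in C1q-low, 205 CPM (144 to 282) in cDC1-like and 71.5 CPM (60.6 to 83.7) in C1q-high cells. The TAK-931 library was thus lower in each of these 3 classes, by 2.17-fold in C1q-low cells (log2 ratio -1.12, -1.38 to -0.84) and 2.43-fold in C1q-high cells (-1.28, -1.54 to -1.02). The share of C1q-high cells with Havcr2 at 4000 UMIs was 27.9% in vehicle (20.4 to 36.5) and 11.7% after TAK-931 (9.77 to 13.8). In C1q-low cells the shares were 44.4% (33.4 to 55.9) and 30.5% (27.4 to 33.7), and in cDC1-like cells, of which vehicle held 9, they were 77.8% (40.0 to 97.2) and 27.8% (16.5 to 41.6), with intervals that overlapped in both.

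In C1q-high cells Havcr2 was the only member of the 6 compared that was at least 2-fold lower, where 12.1% of 12987 genes were. In C1q-low cells it was again the only one, of 4 compared, where 5.37% of 11873 genes were, or 3.23% at 50 UMIs. The C1q-low ratio did not pass 2-fold under every alternative. A gene with 0 vehicle UMIs counted as higher. By this rule 3 of the 6 members were 2-fold higher in C1q-high cells, where 15.3% of genes were. These were Pdcd1, Ctla4 and Tox, all with 0 vehicle UMIs and intervals of the log2 ratio that took in 0. In C1q-low cells 2 of 4 were, where 22.7% of genes were. Pdcd1 rested on 0 vehicle UMIs, and Lag3, 2.39-fold higher (0.406 to 96.8), on 1. The libraries also differed in other markers. The summed level of 10 genes of dividing cells in C1q-high cells was 776 CPM in vehicle and 206 CPM after TAK-931, that of 6 J558 markers 552 and 111 CPM, that of 5 erythroid and platelet genes 616 and 121 CPM and that of 6 T cell markers 0.928 and 23.7 CPM, with 1 of the 6 detected in vehicle and all 6 after TAK-931. In C1q-low cells the sums were 55.0 and 83.9 CPM for dividing cells, 60.8 and 76.0 CPM for J558, 1.45 and 18.0 CPM for T cell markers, and 49.2 and 18.4 CPM for erythroid and platelet genes. The sum of 5 neutrophil genes was 42.2 and 79.6 CPM in C1q-high and 242 and 137 CPM in C1q-low cells. Their part in the Havcr2 levels was not tested, and treatment, tumor and library cannot be told apart.

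**Figure D5:**
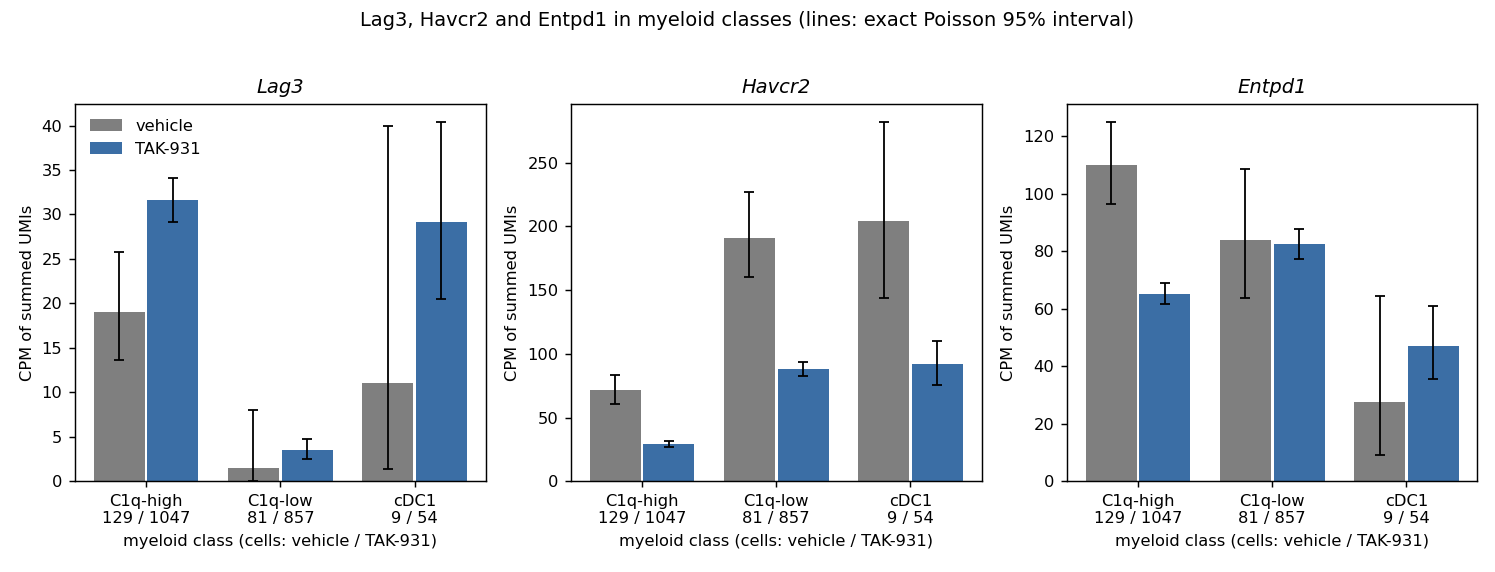
Summed level (y axis, CPM, from 0, a different range in each panel) of Lag3, Havcr2 and Entpd1 in C1q-high and C1q-low monocyte/macrophage-like cells and cDC1-like cells, with vehicle in gray and TAK-931 in blue. Lines are exact Poisson 95% intervals and cell numbers stand under each class. Havcr2 was lower in the TAK-931 library in all 3 classes, Lag3 was lowest in C1q-low cells, and the Entpd1 intervals separated the libraries only in C1q-high cells.

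Entpd1, whose product degrades extracellular ATP, was the most widespread member. After TAK-931 it was at 139 CPM in CD8 T-like, 115 CPM (104 to 127) in J558-like, 111 CPM (101 to 122) in endothelial-like, 82.5 CPM in C1q-low and 65.2 CPM in C1q-high cells. In the order of levels, each neighbour from J558-like cells down to C1q-high cells overlapped the next, and CD8 T-like cells lay above them all. J558-like cells of vehicle had 89.5 CPM (87.6 to 91.3) in 89.9% of cells and, with 2460 cells, held 70.7% of the library's Entpd1 UMIs. Endothelial-like cells had 269 CPM (245 to 295) in vehicle, above the 111 CPM after TAK-931, and fibroblast-like cells had 7.59 and 9.29 CPM. In C1q-high cells Entpd1 was lower after TAK-931 (65.2 against 110.0 CPM; log2 ratio -0.75, -0.96 to -0.55), and in C1q-low cells the levels were 82.5 and 84.0 CPM (-0.03, -0.41 to 0.38). Nt5e, which encodes the enzyme CD73 that acts after CD39, was at 25.0 CPM in regulatory T-like, 10.6 in CD8 T-like and 57.6 in endothelial-like cells of the TAK-931 library.

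Pdcd1, Ctla4, Tigit and Tox were near 0 in macrophage-like cells. No UMI of any of these 4 was found in the 210 vehicle cells, and after TAK-931 they were at 1.56, 0.90, 0.05 and 0.75 CPM in C1q-high cells. The 31 Pdcd1 UMIs of the C1q-high cells against 0 in vehicle gave an exact interval of the log2 ratio that began at -0.22, so that no difference was detectable at this depth. J558-like cells had these 4 and Lag3 and Havcr2 at 2.74 CPM or less after TAK-931, and at 1.54 CPM or less in vehicle.

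The ligands of these receptors were measured in the same cells. Cd274, which encodes PD-L1, was at 56.2 CPM (46.6 to 67.1) in vehicle and 198 CPM (191 to 204) after TAK-931 in C1q-high cells, at 88.3 and 329 CPM in C1q-low cells and at 47.4 and 59.8 CPM in J558-like cells. Cd86, a CTLA-4 ligand, was at 99.8 and 116 CPM in C1q-high and 171 and 189 CPM in C1q-low cells, but at 282 (210 to 371) and 179 CPM (156 to 204) in cDC1-like cells. Cd80, the other CTLA-4 ligand, was at 31.9 and 20.0 CPM in C1q-low and 49.7 and 38.1 CPM in cDC1-like cells, with intervals that overlapped. H2-Ab1, a chain of the MHC class II ligand of LAG-3, was at 2200 and 6609 CPM in C1q-high cells but 5130 and 4548 CPM in C1q-low cells. Pvr, a TIGIT ligand, was at 19.0 and 33.5 CPM in C1q-high cells and 53.6 and 46.0 CPM in C1q-low cells, and Lgals9, a TIM-3 ligand, at 92.8 and 79.3 CPM in C1q-high and 94.1 and 114 CPM in C1q-low cells.

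Across treatments the T cell values of vehicle rested on 7 CD8 T-like and 4 regulatory T-like cells. Each member was found in at least 1 of the 7 CD8 T-like cells: Ctla4 in 7, Pdcd1, Tox and Entpd1 in 6, Lag3 in 5, Havcr2 in 4 and Tigit in 1. The log2 ratio of TAK-931 to vehicle in CD8 T-like cells was -0.30 for Pdcd1 (-0.78 to 0.24), 0.24 for Havcr2 (-0.57 to 1.19, and -0.57 as a mean of each cell's CPM), -0.03 for Tox (-0.71 to 0.76), -0.42 for Entpd1 (-1.06 to 0.32) and -0.60 for Tigit (-2.48 to 2.46). All 5 intervals took in 0. Lag3 (-1.84, -2.35 to -1.27) and Ctla4 (-0.96, -1.60 to -0.24) lay below 0, and the median of all genes was at 0.63, or 0.20 over genes with at least 50 UMIs, of which 7.49% were at least 2-fold lower, but 1 of the 7 cells held 38.7% of the Lag3 UMIs, 1 held 45% of the Ctla4 UMIs and 1 held 50% of the Havcr2 UMIs. The J558 markers summed to 9.74 CPM in the vehicle and 1314 CPM in the TAK-931 cells and the myeloid markers to 29.2 and 234 CPM; without the 23 cells of another class, in which most of the J558 RNA lay, Lag3 was at -1.65 (-2.17 to -1.09) and Ctla4 at -0.81 (-1.45 to -0.09). Among the 4 regulatory T-like cells of vehicle, Ctla4 was in all 4, at 307 CPM, with 60.0% of its UMIs in 1 cell. Another of them also met the J558 marker minimum and was the deepest, at 122835 UMIs, and without it the Ctla4 level of the other 3 was 772 CPM (583 to 1002).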

How the data were processed

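Droplet scRNA-seq (3′ chemistry) of 1 vehicle and 1 TAK-931 allograft was analysed. The deposited matrices hold raw UMI counts per gene and barcode, made by the authors with Cell Ranger 6.0.0 without normalization; the submitters' processing notes name the mouse build mm10, while the study's methods name a human build. The libraries held 4565 and 6558 barcodes and 144767193 and 77369283 UMIs.

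The gene minimum (over 2000) and the mitochondrial limit (under 15%) followed the study's methods. T cells needed at least 3 UMIs and 2 genes of the CD3 and T cell receptor constant genes, at least 1 of them CD3, and under 0.25% myeloid marker UMIs. CD8 T-like cells had at least 2 UMIs of Cd8a and Cd8b1 and none of Cd4 or Foxp3, regulatory T-like cells at least 1 Foxp3 UMI and no Cd8, and CD4 T-like cells at least 1 Cd4 UMI and neither. The T cells that met none of these (106 after TAK-931) and the 116 with more myeloid UMIs entered no T cell class; 21 of the latter lay between 0.25% and 0.5%. Monocyte/macrophage-like cells had at least 0.5% myeloid marker UMIs and at most 1 CD3 UMI, and were C1q-high from 0.3% C1q UMIs. Classes for plasmacytoid dendritic cells and for cells that were both endothelial-like and J558-like were added after the data were seen.

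Summed counts gave CPM with exact Poisson intervals, ratios exact conditional binomial intervals and shares Clopper-Pearson intervals, all at 95%. The limit for a count of 0 is 3 counts. Thinning to 4000 UMIs drew without replacement (seed 1). Genes with at least 10 UMIs over both sums were compared, and 2-fold was called. The functions were tested on simulated data. Named genes were the 7 members, the 3 genes of highest r for each, and from each list the genes among the 3 largest ratios either way; ligand levels were taken for all classes. The members and lists were chosen with earlier results of these data known. Tables were read with pandas 2.3.3 and plotted with matplotlib 3.10.9; sums and intervals came from scipy 1.17.1 and numpy 2.4.6 under python 3.11.15. Positions are from GENCODE on GRCm38. RefSeq promoters were matched by symbol for 5 of the 7 members. Whether Cell Ranger's counting split reads between Ptms and Lag3 was not examined. A gene of the progenitor list is not reported here by name.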

Additional observations from a re-analysis of the deposited data

Results flagged for a closer look

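Barcodes with over 500 and up to 2000 genes, 722 in vehicle and 1147 after TAK-931, entered none of the comparisons. Summed over all of them, 5 members were above the vehicle level with intervals that did not overlap. The share of all genes that were higher in these sums was not computed. The TAK-931 levels were 33.8 CPM for Pdcd1 (vehicle 12.9), 26.6 for Lag3 (10.0), 76.1 for Ctla4 (21.8), 8.40 for Tigit (1.79) and 51.3 for Tox (8.93). Among them were 154 CD8 T-like, 45 CD4 T-like and 34 regulatory T-like cells of the TAK-931 library, against 11, 3 and 3 in vehicle, and the part of T cell number in the sums was not tested. Within the small CD8 T-like cells the order was the reverse for Pdcd1 (436 CPM in vehicle, 140 after TAK-931), Lag3 (415 and 67.2) and Ctla4 (305 and 87.7), and the Tox intervals overlapped (218 and 152). Havcr2, summed over all these barcodes, was at 25.0 CPM in vehicle and 18.7 CPM after TAK-931, and Entpd1 at 60.4 and 73.7 CPM. The intervals overlapped for both.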

How the results depend on the processing

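Across the alternatives no value changed direction once called. Of the values for single genes 615 moved by less than their counting interval and 55 by more, and of the summaries 186 and 18. Depth decided the shares. The median share over members was 34.8% in CD8 T-like, 25.5% in regulatory T-like and 0.578% in monocyte/macrophage-like cells; with 2000 UMIs per cell it was 20.6%, 13.2% and 0.210%, and without thinning 70.8%, 49.1% and 1.89%. The share of CD8 T-like cells with at least 3 members, 48.2%, was 21.0% at 2000 UMIs and 88.9% without thinning. Without thinning the difference in Havcr2 between cells with and without Gzmb was 50.5 percentage points instead of 29.7, and the median log2 ratio of members between cells with and without Pdcd1 was 1.18 instead of 0.41. Without T cells over 30000 UMIs, 4 members instead of 2 passed 2-fold between regulatory T-like and CD8 T-like cells. With a myeloid minimum of 1%, the Entpd1 ratio of C1q-low cells was -0.45 instead of -0.03. With a minimum of 50 UMIs per gene, the share of all genes lower in regulatory T-like cells was 9.30% instead of 15.5%, the shares higher and lower with Pdcd1 were 0.523% and 1.05%, the share higher in C1q-high cells after TAK-931 was 8.90%, and those higher and lower in C1q-low cells were 13.4% and 3.23%; these tests took in fewer genes. The Havcr2 ratio of TAK-931 to vehicle stayed between -1.49 and -1.27 in C1q-high and between -1.35 and -0.98 in C1q-low cells. The end at -0.98 lies short of 2-fold. In CD8 T-like cells the Havcr2 ratio was 0.24, and -0.57 as a mean of each cell's CPM. Subtracting the J558 level gave no Entpd1 ratio between T cell classes, since regulatory T-like cells lay below J558-like cells. No paired analysis was possible because each group had 1 library. The alternatives that left out T cells of another class, and the class of endothelial-like cells with J558 markers, were chosen after seeing the data.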

Other observations

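The small T cells of the TAK-931 library, those with over 500 and up to 2000 genes, differed from the larger ones in part of the members. In the 154 small CD8 T-like cells, with a median of 4354 UMIs, Havcr2 was found in 3.25% (8.77 CPM, 3.22 to 19.1), whereas the larger CD8 T-like cells drawn down to 4000 UMIs had it in 31.3%. Some of the small cells were under 4000 UMIs, and shares are therefore set beside levels, which do not rest on depth in this way. The Havcr2 level of the larger cells was 138 CPM. Pdcd1 was at 140 CPM (114 to 171) in the small and 269.6 CPM in the larger cells. The intervals overlapped for Tox (152 CPM, 124 to 184, and 163 CPM) and Entpd1 (109.6 CPM, 86.2 to 137, and 139 CPM). They also overlapped for Lag3 (67.2 and 84.5 CPM), Ctla4 (87.7 and 100.1 CPM) and Tigit (20.5 and 12.9 CPM). The 2000-gene minimum thus set aside CD8 T-like cells with little Havcr2.

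Ctla4 was found in 32 of 34 small regulatory T-like cells (94.1%), at 910 CPM (757 to 1086), above the 596 CPM of the larger ones. In the 45 small CD4 T-like cells Ctla4 was in 42.2% and no UMI of Havcr2 was found, which at their median of 4700 UMIs allows a share of cells with a UMI of up to 6.67% by the 3-count limit and 7.87% by the exact interval.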
